A study of Mus musculus with 3 samples.

Results

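Single adult mouse heart cells with a high Ino80 transcript level were compared between day 3 and day 2 of tamoxifen treatment. The wells were chosen by their measured Ino80 level: 433 wells of the day 3 library and 817 wells of the day 2 library, 1250 of the 3394 wells in the 3 tables of the series. Ino80 encodes the ATPase of the INO80 complex, a remodeller that slides and exchanges nucleosomes and is known for its part in transcription and DNA repair. Wells entered when they had at least 1000 counts and 300 detected genes and at least 1000 counts per 1000000 (CPM) of Ino80. They also had to stay under 1000 CPM for the sum of the macrophage genes Lyz2, C1qa, C1qb and C1qc and under 1000 CPM for the sum of the fibroblast genes Dcn, Col1a1, Col3a1 and Lum. CPM is taken over all nuclear-encoded mouse genes, in 1 well or, where called pooled, over the summed wells of a group. The levels of Ino80 and of these 8 marker genes are a description and nothing is read from them.

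The day 3 library carries the genotype labels D3_INO80_OE and D3_Ctrl together, without a key from wells to genotype. The day 2 library is labelled D2_INO80_OE, and the day 1 library, used as context, D1_INO80_OE. Wells are therefore named by their Ino80 level and never by genotype. All mice received tamoxifen. The series title names the mice Myh6-MCM;Ino80fl/fl, while the design text speaks of Ino80 induction, and the alleles of each library could not be settled from these sources. Myh6-MCM drives a tamoxifen-activated Cre recombinase from the cardiomyocyte Myh6 promoter. The number and age of the animals were not stated. Cells were dispensed into nanowells of the iCell8 instrument and imaged, and wells with 1 living cell were sequenced from polyA RNA.

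Each day is 1 library, so no test between days is possible, no p-value is given, and every difference is one between these libraries. Intervals in brackets are exact 95% intervals that treat each read as an independent count. The counts are reads and not unique molecules, so several reads may come from 1 molecule. The intervals cover neither this nor the spread between wells. On day 3, 1092 of 1099 wells passed the depth minimum and 942 of those the marker sums; on day 2 these were 1059 of 1063 wells and 842. Members had a median of 307645 counts and 3854 detected genes on day 3, and 349083 counts and 3593 genes on day 2. Counts of nuclear-encoded genes alone, on which CPM rests, had a median of 237592 on day 3 and 199105 on day 2. Shares of wells with a count are thus read against a higher nuclear depth on day 3. The day 3 wells fell into separate levels of Ino80: 458 wells were under 100 CPM and 51 between 100 and 1000 CPM, whereas on day 2 no well was under 100 CPM and 25 were between 100 and 1000 CPM. At the threshold the lowest member held 1013 CPM of Ino80 on day 3 and 1036 CPM on day 2, and the highest well below it 990 CPM on day 3 and just under 1000 CPM on day 2. Of the well barcodes, which name positions and not cells, 56 named a member in both libraries.

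The members carried cardiomyocyte transcripts at a high level on both days, as the labelled cell type says. The summed level of 15 ventricular cardiomyocyte markers per well had a median of 80039 CPM on day 3, with quartiles of 74544 and 86461, and of 121960 CPM on day 2, with quartiles of 111097 and 132819. Ino80 itself (ENSMUSG00000034154.15, chr2:119373042-119477687 on mm10, minus strand) had a median of 2826 CPM on day 3 and 5200 CPM on day 2. The median share of counts from mitochondrial genes was 19.8% on day 3, with quartiles of 17.6% and 24.5%, and 43.7% on day 2, with quartiles of 27.7% and 49.1%. Most day 3 wells, 321, lay between 15% and 25%, where 120 day 2 wells lay, and 51 day 3 wells had 35% or more, against 528 on day 2. On day 2 pooled Ino80 was 2125 CPM in wells of 15% to 25% mitochondrial counts and 6544 CPM in wells of 35% or more. The log2 ratio of Ino80 itself was -0.71 over all members, 0.39 within wells of 15% to 25% mitochondrial counts, 0.42 within 25% to 35% and 0.05 within wells of 2000 to 4000 CPM of Ino80. Values within bands of mitochondrial share or Ino80 level are therefore given for the leading genes. The last paragraphs list the other described genes that turned or came under 2-fold there. Wells of 1 band still differed between days. Within 15% to 25% the median mitochondrial share was 18.7% on day 3 and 23.1% on day 2. Within 2000 to 4000 CPM of Ino80 it was 19.4% on day 3 and 26.9% on day 2. At 4000 CPM or more it was 26.8% on day 3 and 47.5% on day 2, with median Ino80 of 4925 CPM on day 3 and 6823 CPM on day 2.

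**Figure D1:**
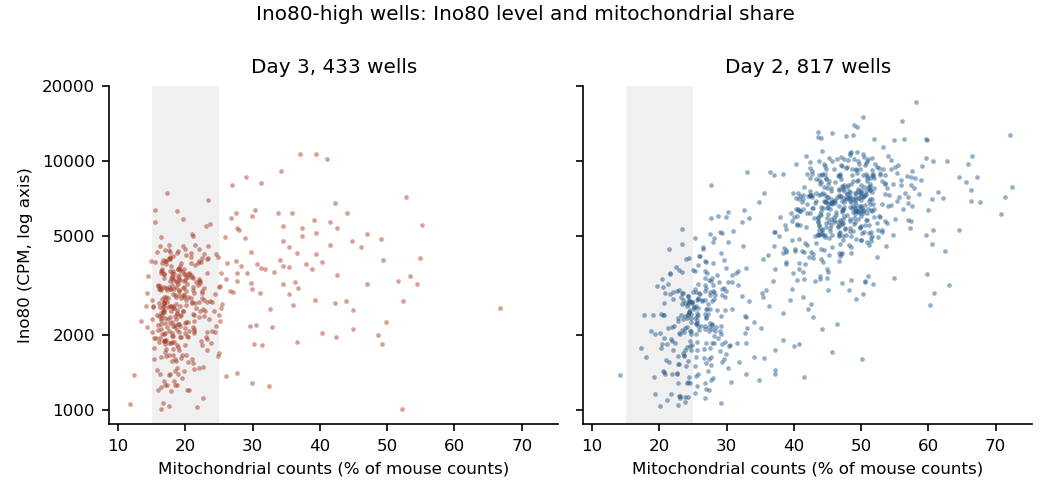
Ino80 level (CPM, log axis) against the mitochondrial share of counts (%) in each of the 433 day 3 wells (left) and 817 day 2 wells (right); the grey band marks 15% to 25%. Day 3 wells gather in the band, with 321 of 433 inside it, while 528 of 817 day 2 wells lie at 35% or more.

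Across the genome, 6459 nuclear-encoded genes had a mean of at least 10 CPM over both groups. Of these, 530 (8.21%) stood 2-fold or more above day 2 on day 3 and 869 (13.5%) stood 2-fold or more below, 1399 (21.7%) in all, so that 37.9% of those apart were higher. The median log2 ratio of day 3 over day 2 was -0.16. Scaling to all mouse counts, mitochondrial ones included, moved every log2 ratio up by 0.38, turned the split to 861 higher and 273 lower (75.9% higher) and moved the median to 0.25. Within wells of 15% to 25% mitochondrial counts 787 genes were higher and 682 lower (53.6% higher), within 25% to 35% they were 1282 and 754 (63.0% higher), and with the median well in place of the sum 467 and 310 (60.1% higher). The balance of higher and lower genes thus differed between scalings, and lists are read against the median of all genes in the same scaling.

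Long transcripts were lower on day 3 than short ones. In 4 equal groups of genes by exon length, with median lengths of 1753, 3539, 5615 and 9785 bases, the median log2 ratio was 0.10, -0.11, -0.26 and -0.36. Within wells of 15% to 25% mitochondrial counts the same groups gave 0.05, 0.07, 0.07 and 0.05. The part of transcript length or RNA quality in any single gene was not tested.

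Among gene lists other than cell type markers, the fetal and stress program of cardiomyocytes had the highest median and the ion channel genes the lowest over all member wells. The fetal and stress program was highest in 16 of 17 alternative settings, the exception being the median of per-well CPM, where the matrix genes had 1.65 and the program 1.00. The ion channel genes were lowest in 8 of the 17. These settings draw on the same 2 libraries, and the lists were chosen with earlier results of these data known, so the rankings are no independent support. Members with a mean of at least 5 CPM were counted. Over all 8420 genes at that level, 9.01% were higher by 2-fold or more, 15.6% lower by 2-fold or more, 41.2% higher by any amount and 58.8% lower, with a median log2 ratio of -0.18.

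**Figure D2:**
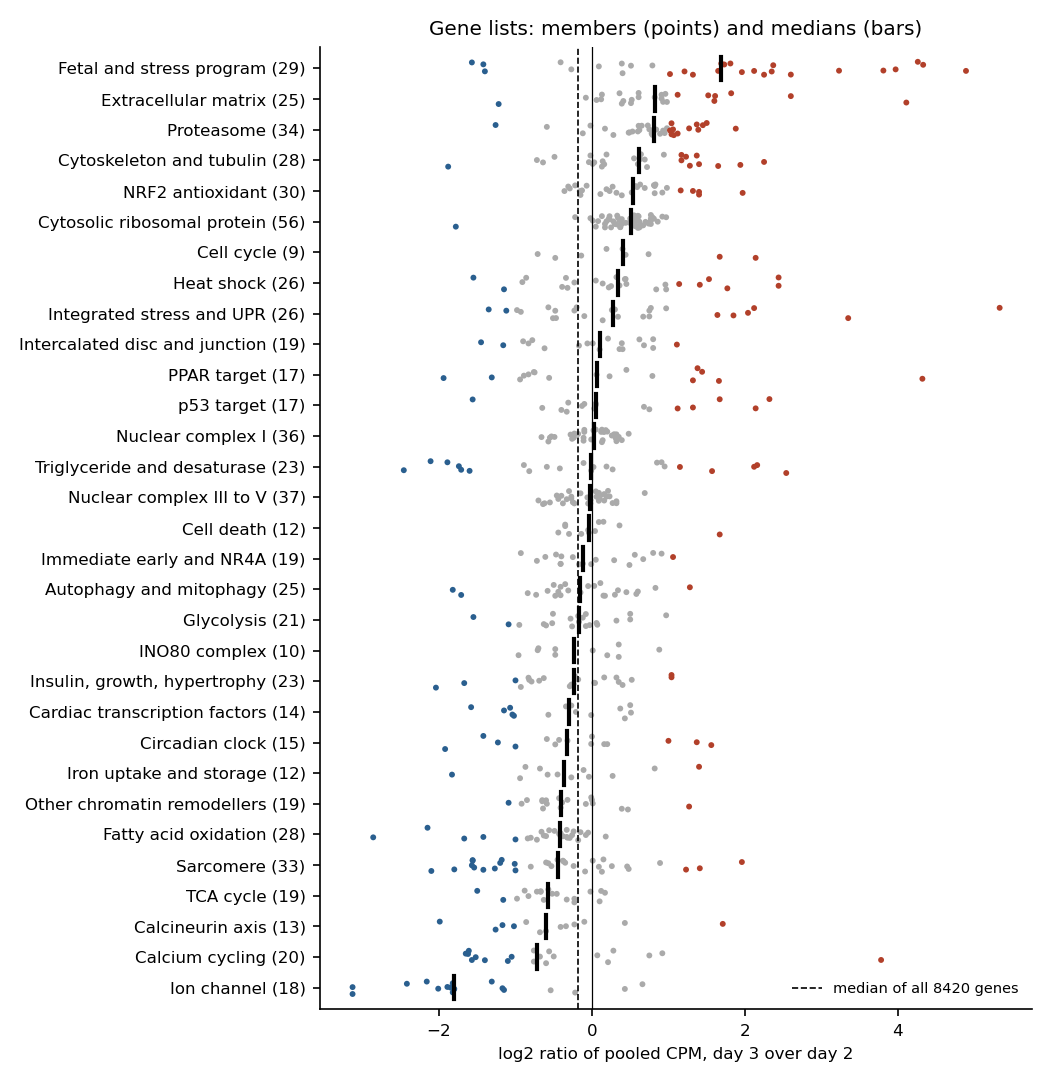
log2 ratio of pooled CPM, day 3 over day 2, of each measured member (points; red at least 2-fold higher, blue at least 2-fold lower) and the median (black bar) of the gene lists, with the number of measured members in brackets; the dashed line is the median of all 8420 genes, -0.18. The fetal and stress program sits at the top with a median of 1.69 and the ion channel genes at the bottom with -1.81.

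Most genes of the fetal and stress program were higher on day 3. Adult ventricular muscle is known to turn such genes back on under load or injury, among them the natriuretic peptides, which strained heart muscle secretes. Of 29 measured members 24 were higher and 19 at least 2-fold higher, 3 were at least 2-fold lower, and the median log2 ratio was 1.69. The median was 1.38 within wells of 15% to 25% mitochondrial counts and 1.45 within wells of 2000 to 4000 CPM of Ino80. The 3 members far lower were the myosin heavy chains Myh6 and Myh7 and the calcium pump gene Atp2a2. The list thus also holds genes of adult muscle, such as Myh6 and Atp2a2. Myh7, the fetal myosin of mouse ventricle, went against the list, with 119 CPM on day 3 and 352 CPM on day 2. It held 85.7 CPM in the day 3 wells under 100 CPM of Ino80. Whether fetal genes were turned back on was not tested.

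Ankrd1 (ENSMUSG00000024803.9, chr19:36111961-36120099, minus strand) encodes a stretch-responsive ankyrin repeat protein of the sarcomere. Its pooled level was 4184 CPM (4173 to 4195) on day 3 and 1076 CPM (1071 to 1080) on day 2. Its per-well median was 3498 CPM on day 3, with quartiles of 2900 and 4163, and 850 CPM on day 2, with quartiles of 487 and 1374. The log2 ratio was 1.96 (1.95 to 1.97), and 99.3% of day 3 wells lay above the day 2 median. Single wells overlapped, since the highest day 2 well held 15098 CPM. Its relative Ankrd2, better known from skeletal muscle, had 88.1 CPM in 54.5% of day 3 wells and 4.38 CPM in 2.82% of day 2 wells, a log2 ratio of 4.33 (4.23 to 4.43).

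Both natriuretic peptides were higher. The precursor Nppb had a per-well median of 1025 CPM on day 3 (799 and 1353 as quartiles) and 462 CPM on day 2 (266 and 724). Its log2 ratio of 1.21 was 0.89 within wells of 15% to 25% mitochondrial counts and 0.80 within wells of 2000 to 4000 CPM of Ino80, under 2-fold in both. Nppa, its atrial relative, had a per-well median of 154 CPM on day 3 (106 and 221) and 5.52 CPM on day 2 (0 and 16.7). Its log2 ratio was 3.97 (3.92 to 4.03), and 99.8% of day 3 wells lay above the day 2 median.

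Injury genes were found in part of the day 3 wells and in few day 2 wells. Sprr1a (ENSMUSG00000050359.7, chr3:92483952-92485895, minus strand), a small proline-rich protein gene known from stressed cardiomyocytes, had 148 CPM (146 to 150) on day 3 and 10.5 CPM (10.1 to 11) on day 2. It had a count in 49.9% of day 3 wells and 5.51% of day 2 wells, and its highest well held 2632 CPM on day 3 and 907 CPM on day 2. Day 3 wells under 100 CPM of Ino80 had a count in 29.9%, at a pooled 1.28 CPM. A count alone can thus stand for a trace level. On day 2, 57% of its counts lay in 1 well. The log2 ratio of 3.81 (3.75 to 3.87) was 2.00 within wells of 15% to 25% mitochondrial counts, where day 3 wells held 178 CPM and day 2 wells 44.5 CPM.

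Secreted injury genes went the same way. Gdf15, a stress cytokine, had 45.4 CPM on day 3 and 10.5 CPM on day 2 (log2 ratio 2.12). Timp1, an inhibitor of metalloproteinases, had 132 CPM on day 3 and 21.7 CPM on day 2 (2.60, but 0.67 within wells of 25% to 35% mitochondrial counts). Both were found in more day 3 wells: Gdf15 in 66.5% of day 3 wells against 20% of day 2 wells and Timp1 in 70.2% of day 3 wells against 22.5% of day 2 wells. Gdf15 also had a count in 17.5% of day 3 wells under 100 CPM of Ino80, at 1.40 CPM. Spp1 (osteopontin) had a log2 ratio of 4.89, but 41.8% of its day 3 counts came from 1 well, and the ratio was 2.00 within wells of 2000 to 4000 CPM of Ino80.

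Stress enzymes and metal-binding proteins of the same list followed. Uchl1, a ubiquitin hydrolase, was found in 88% of day 3 wells and 37.6% of day 2 wells (log2 ratio 2.35). Nmrk2, a kinase of NAD synthesis, was found in 95.6% of day 3 wells and 56.1% of day 2 wells (2.37). The metallothionein Mt2 had a per-well median of 194 CPM on day 3 and 3.01 CPM on day 2 (3.23), and its close copy Mt1, which may share reads with it, 2904 CPM on day 3 and 734 CPM on day 2 (1.81).

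Lgals3 (galectin-3), known both from injured heart and from macrophages, had 257 CPM in 94.2% of day 3 wells and 13.4 CPM in 20.4% of day 2 wells (log2 ratio 4.26, 4.20 to 4.32). Day 3 wells under 100 CPM of Ino80 held 4.43 CPM of Lgals3, with a count in 60.3% of them. Macrophage markers that had not been used to choose the wells were higher beside it. All 6 measured of these 7 were higher, 5 by 2-fold or more, and none of the 7 was at 0. Their per-well sum had a median of 69.7 CPM on day 3 (lowest 0, highest 5429) and 14.8 CPM on day 2 (lowest 0, highest 2909). The defining genes Lyz2 and C1qb, which the marker sum capped, had 43.5 and 23.7 CPM on day 3 and 35 and 27 CPM on day 2. Cd68 had 32 CPM on day 3 and 5.08 CPM on day 2. Csf1r, whose exons overlap Hmgxb3 on the other strand, had 80.3 CPM on day 3 and 9.20 CPM on day 2. With both marker sums under 300 CPM, the log2 ratio was 4.33 for Lgals3, 2.35 for Timp1 and 3.62 for Spp1. The macrophage markers stayed higher in those wells as well, with Csf1r at 3.15, Cd68 at 2.88 and the whole macrophage list at a median of 1.20. The part of macrophage transcripts in the injury genes was not tested. With no wells dropped for the marker sums, the median of the measured markers of the whole macrophage list was -0.40.

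Genes usually confined to atrial muscle were far higher on day 3. Of 9 measured atrial markers 8 were higher and 7 at least 2-fold higher, with a median of 3.10. Sln, the sarcolipin that inhibits the calcium pump, had a per-well median of 487 CPM on day 3 (98 and 1049 as quartiles) and 0 CPM on day 2 (0 and 3.67), a pooled log2 ratio of 3.78. Myl7, the atrial regulatory light chain, had a per-well median of 284 CPM on day 3 and 0 CPM on day 2 (3.91). On day 2, 1 well held 38.5% of the Sln counts and 1 well 30.7% of the Myl7 counts. Myl4, the atrial essential light chain, had a per-well median of 173 CPM on day 3 and 0 CPM on day 2 (3.10). A sum of Sln, Myl7 and Myl4 of 1000 CPM or more occurred in 241 day 3 wells (55.7%) and 22 day 2 wells (2.69%). With those wells, and wells with like sums of endothelial or erythroid genes, left out, 179 day 3 and 702 day 2 wells gave a log2 ratio of 3.54 for Nppa, which is not part of these sums.

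Among the 3 days, day 2 was lowest for these genes. Pooled Sln was 2342 CPM in day 1, 81.4 CPM in day 2 and 1117 CPM in day 3 wells with high Ino80, and 602 CPM in the day 3 wells under 100 CPM of Ino80. Myl7 was 1248 CPM in day 1, 41 CPM in day 2 and 617 CPM in day 3 wells with high Ino80, and 367 CPM in the day 3 wells under 100 CPM of Ino80. The share of atrial cells in each library was not tested.

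Bmp10, a BMP ligand made by atrial muscle, was also lowest on day 2 but highest on day 3. It had 76.9 CPM (75.4 to 78.5) on day 3, in 67.9% of wells, and 3 counts over all day 2 wells, which is 0.0144 CPM (0.00297 to 0.0422), a log2 ratio of 12.38 (10.83 to 14.66). It was at 9.33 CPM in day 1 wells with high Ino80. In day 3 wells under 100 CPM of Ino80 it was at 1.48 CPM, with a count in 30.6% of wells. Kcnj3, a potassium channel subunit on the same list, had 9.49 CPM on day 3 and 34.3 CPM on day 2 (log2 ratio -1.85), but 1.91 within wells of 25% to 35% mitochondrial counts.

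**Figure D3:**
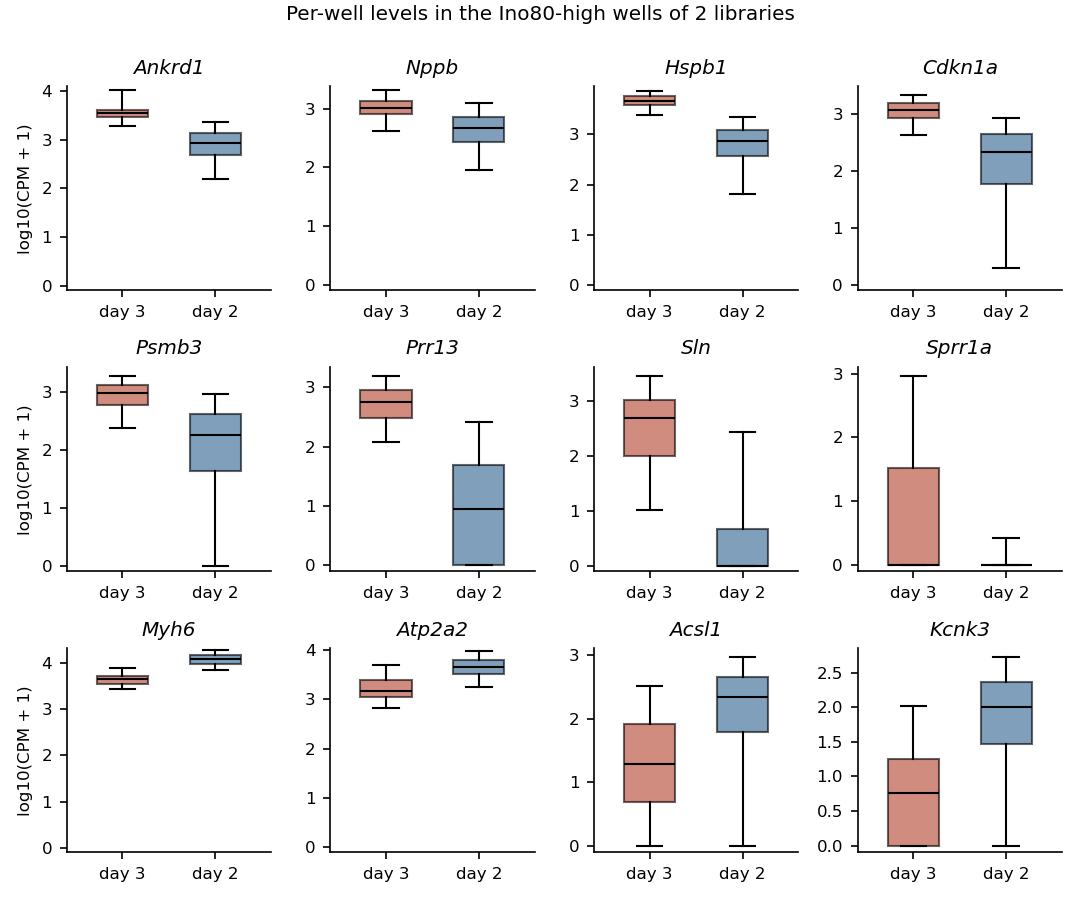
Levels per well as log10(CPM + 1) of 12 genes in the Ino80-high wells of day 3 (red, left, 433 wells) and day 2 (blue, right, 817 wells); boxes are quartiles with the median, whiskers reach the 5th and 95th percentile. Ankrd1, Hspb1 and Cdkn1a lie above the day 2 median in 99.3%, 99.8% and 99.8% of day 3 wells, and Myh6 below the first day 2 quartile in 97.5%.

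The 14 highest and 14 lowest genes were named by a ratio with 5 CPM added to both groups. Among the higher ones, Angptl4, a secreted inhibitor of lipoprotein lipase, had 119 CPM in 72.7% of day 3 wells and 5.96 CPM in 6.36% of day 2 wells (log2 ratio 4.32, 4.24 to 4.40). Prr13, a proline-rich protein gene, had a count in 100% of day 3 wells, with a median of 572 CPM (300 and 911 as quartiles), and in 64.4% of day 2 wells, with a median of 7.87 CPM (0 and 48). Its log2 ratio was 3.54 (3.51 to 3.57). Mir22hg, the host transcript of the muscle microRNA miR-22, had 186 CPM on day 3 and 12.9 CPM on day 2 (3.84). Aarsd1, an alanyl-tRNA editing gene that shares exons with Gm27029, had 54 CPM on day 3 and 2.28 CPM on day 2 (4.57).

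Bglap3, of the osteocalcin family, had 101 CPM in 49.7% of day 3 wells and 6.98 CPM in 8.20% of day 2 wells (log2 ratio 3.86), and its near copies Bglap and Bglap2 could share its reads. Olfr373, annotated as an olfactory receptor, had 54.5 CPM in 64.9% of day 3 wells and 1.74 CPM in 2.45% of day 2 wells (4.97). On day 2, 63.2% of its counts lay in 1 well. Several of these genes were low in the day 1 wells and in the day 3 wells with little Ino80. In day 3 wells under 100 CPM of Ino80, Sprr1a held 1.28 CPM, Ankrd2 1.91 CPM, Bglap3 0.662 CPM, Olfr373 0.331 CPM and Aarsd1 0.814 CPM. Counts at these low levels were found in 29.9% of those wells for Sprr1a, 26.6% for Ankrd2, 18.6% for Bglap3, 10.3% for Olfr373 and 12.2% for Aarsd1. In day 1 wells with high Ino80, Sprr1a held 0.372 CPM, Ankrd2 1.09 CPM, Bglap3 1.43 CPM, Olfr373 0.246 CPM and Aarsd1 1.47 CPM. They were not low in the 28 day 3 wells with high Ino80 that the macrophage marker sum had left out, where Sprr1a held 111 CPM, Ankrd2 87.8 CPM, Bglap3 69.4 CPM, Olfr373 40.9 CPM and Aarsd1 30.8 CPM.

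A median of 11 of the 14 higher genes had a count in a day 3 well (lowest 5, highest 14), a number that the choice of these genes by level and detection bears on. Over the 433 day 3 wells, Spearman correlations of the 28 named genes with Ino80 lay between -0.10 and 0.19, and those with the mitochondrial share between -0.37 for Prr13 and 0.23 for Acsl1. These are descriptions over wells of 1 library that share its preparation.

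**Figure D4:**
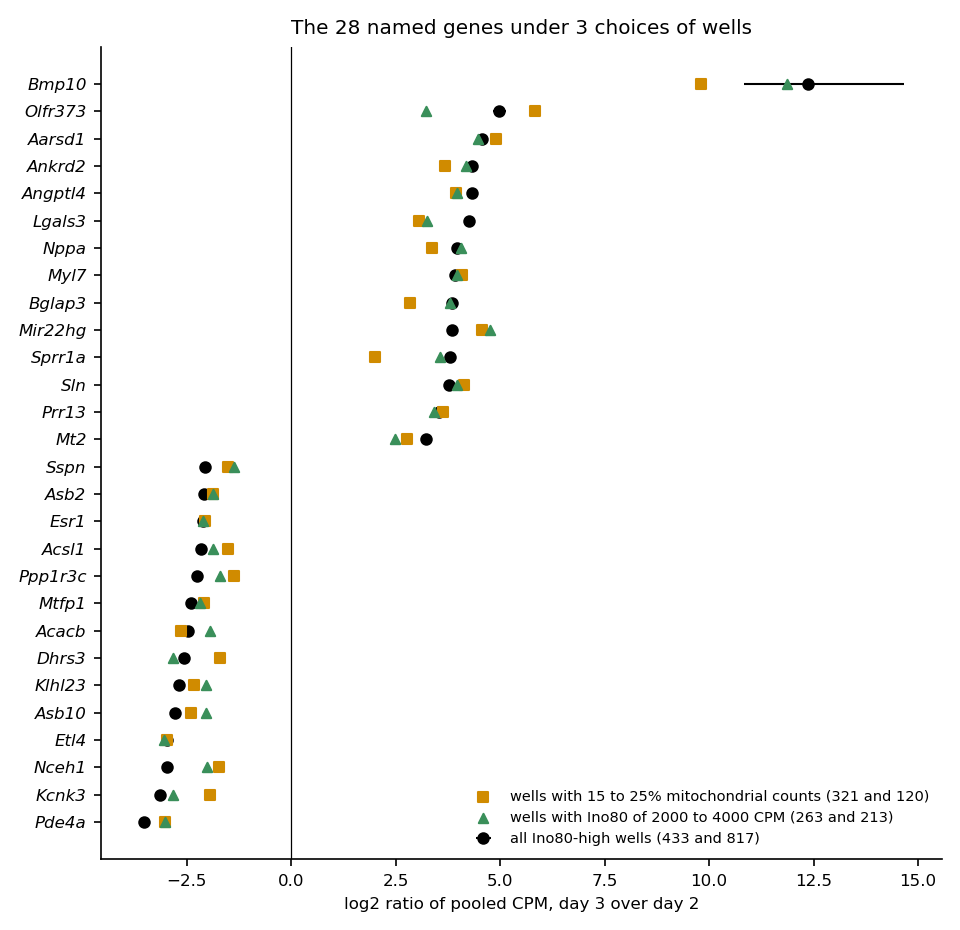
log2 ratio of pooled CPM, day 3 over day 2, of the 28 named genes in all Ino80-high wells (black circles with exact 95% counting intervals), in wells of 15% to 25% mitochondrial counts (orange squares) and in wells of 2000 to 4000 CPM of Ino80 (green triangles). All 28 keep their side of 0 in these 3 sets of wells; Sprr1a moves to 2.00 and Kcnk3 to -1.94 at 15% to 25%.

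Genes of the integrated stress and unfolded protein response were split. In the integrated stress response, shortage of amino acids or unfolded proteins leads through ATF4 to genes of amino acid synthesis and transport. Of 26 measured members 15 were higher, 6 by 2-fold or more, 2 were lower by 2-fold or more, and the median was 0.28, or 0.02 with no wells dropped for the marker sums. Psat1, of serine synthesis, had 12.5 CPM in 18.5% of day 3 wells and 0.313 CPM in 2.45% of day 2 wells (log2 ratio 5.33, 4.97 to 5.71). In Psat1, 43.1% of the day 2 counts came from 1 well. Mthfd2, of the mitochondrial folate cycle, had 46.1 CPM in 35.1% of day 3 wells and 4.53 CPM in 5.39% of day 2 wells (3.35). Asns, asparagine synthetase, had 10.8 CPM on day 3 and 2.63 CPM on day 2 (2.04), with 38.1% of its day 2 counts in 1 well. Chac1, which degrades glutathione, had 14.4 CPM on day 3 and 4.02 CPM on day 2 (1.85), but a ratio of -0.64 within wells of 25% to 35% mitochondrial counts. Herpud1, of protein disposal at the endoplasmic reticulum, had 80.4 CPM on day 3 and 205 CPM on day 2 (-1.35).

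Promoters of the stress lists were searched on both strands for the letters TGATGNAA, a core of the element through which ATF4 acts, and TGACNNNGC, a core of the antioxidant response element bound by NRF2 and, in proteasome genes, by its relative NRF1. The 4 windows shown belong to genes that were higher on day 3 and hold a match, printed in capitals. They run from 250 bases before to 50 bases after the start, from RefSeq on GRCm38.p6.
Asns chr6:7693160-7693459 (minus strand): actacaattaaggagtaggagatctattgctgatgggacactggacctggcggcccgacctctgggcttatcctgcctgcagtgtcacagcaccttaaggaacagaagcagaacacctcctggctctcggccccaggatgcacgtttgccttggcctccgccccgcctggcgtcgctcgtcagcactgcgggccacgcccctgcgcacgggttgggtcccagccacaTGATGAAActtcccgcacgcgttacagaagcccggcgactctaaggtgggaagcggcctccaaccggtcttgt
Chac1 chr2:119350992-119351291 (plus strand): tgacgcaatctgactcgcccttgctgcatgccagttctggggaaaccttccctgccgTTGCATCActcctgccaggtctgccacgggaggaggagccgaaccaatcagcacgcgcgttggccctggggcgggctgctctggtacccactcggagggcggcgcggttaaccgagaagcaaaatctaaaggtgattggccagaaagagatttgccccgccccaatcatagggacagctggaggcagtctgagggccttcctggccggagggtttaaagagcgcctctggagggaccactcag
Srxn1 chr2:152105274-152105573 (plus strand): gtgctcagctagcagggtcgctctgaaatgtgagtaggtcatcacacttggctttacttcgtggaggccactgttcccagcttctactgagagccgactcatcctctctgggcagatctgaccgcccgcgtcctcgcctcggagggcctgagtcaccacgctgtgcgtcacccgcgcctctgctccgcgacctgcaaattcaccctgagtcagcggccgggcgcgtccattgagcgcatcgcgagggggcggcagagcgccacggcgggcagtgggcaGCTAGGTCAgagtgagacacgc
Psmb6 chr11:70525107-70525406 (plus strand): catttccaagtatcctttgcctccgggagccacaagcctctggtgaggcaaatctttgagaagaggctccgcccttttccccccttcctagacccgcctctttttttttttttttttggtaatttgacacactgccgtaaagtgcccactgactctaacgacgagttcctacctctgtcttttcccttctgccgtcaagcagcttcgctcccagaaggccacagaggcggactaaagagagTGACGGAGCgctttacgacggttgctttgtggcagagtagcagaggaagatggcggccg
The first motif was in 4.51% of all 27025 genes with a window and in 4 of 24 matched members of the integrated stress list (16.7%). The windows of Psat1 and Mthfd2 held no match to TGATGNAA. The second was in 14% of all genes, in 9 of 25 matched NRF2 genes (36.0%) and in 5 of 29 matched proteasome genes (17.2%), the last close to the share of all genes. A match describes letters and is no evidence of binding.

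Antioxidant genes were moderately higher. Of 30 measured NRF2 genes 22 were higher, 5 by 2-fold or more, none was lower by 2-fold, and the median was 0.54. Taldo1, transaldolase of the pentose phosphate path, had a per-well median of 267 CPM on day 3 and 17.4 CPM on day 2 (log2 ratio 1.97). Txn1, thioredoxin, had 424 CPM as its median on day 3 and 119 CPM on day 2 (1.40). Srxn1, sulfiredoxin, had a per-well median of 138 CPM on day 3 and 9.60 CPM on day 2. Its pooled log2 ratio was 1.32, but 0.60 within wells of 2000 to 4000 CPM of Ino80.

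Proteasome genes, whose products degrade tagged proteins, were higher across the core and the lid. Of 34 measured members 30 were higher, 12 by 2-fold or more, and the median was 0.81, or 0.77 within wells of 15% to 25% mitochondrial counts. Psmb3, a subunit of the core (chr11:97703399-97713500, plus strand), had a per-well median of 976 CPM on day 3 (603 and 1301 as quartiles) and 177 CPM on day 2 (42.3 and 420), a log2 ratio of 1.88 (1.86 to 1.89). Psmc4 of the regulatory base was at 1.5, Psmb6 of the core at 1.39 and Psmd7 of the lid at 1.37. Psme4, the alternative activator PA200, had 79 CPM on day 3 and 190 CPM on day 2 (-1.26), but a ratio of 0.04 within wells of 25% to 35% mitochondrial counts.

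Chaperones of the cytosol were higher for some families. Of 26 measured heat shock genes 18 were higher, 6 by 2-fold or more, 2 were lower by 2-fold or more, and the median was 0.34. The small heat shock protein Hspb1 (chr5:135887919-135889563, plus strand) had a per-well median of 4675 CPM on day 3 (3810 and 5776 as quartiles) and 745 CPM on day 2 (370 and 1198). 99.8% of day 3 wells lay above the day 2 median, and the log2 ratio was 2.44 (2.43 to 2.44). Its partner Cryab, the alpha-B crystallin of the sarcomere, had a per-well median of 6731 CPM on day 3 and 2336 CPM on day 2 (1.41, 0.80 within 25% to 35% mitochondrial counts). The inducible Hspa1a had 540 CPM on day 3 and 99.2 CPM on day 2 (2.44), and its near copy Hspa1b, with which it may share reads, 184 CPM on day 3 and 53.7 CPM on day 2 (1.77).

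Among p53 targets, Cdkn1a, Gadd45b and Bax were higher and Ccng1 was lower. Cdkn1a (chr17:29090976-29100727, plus strand), the cell cycle inhibitor p21, had a per-well median of 1189 CPM on day 3 (852 and 1574 as quartiles) and 213 CPM on day 2 (57.4 and 444). 99.8% of day 3 wells lay above the day 2 median, and the log2 ratio was 2.14 (2.13 to 2.15). Pooled Cdkn1a was 499 CPM in day 1, 273 CPM in day 2 and 1202 CPM in day 3 wells with high Ino80, and 53.7 CPM in the day 3 wells under 100 CPM of Ino80. Gadd45b, a stress sensor, had 72.3 CPM on day 3 and 14.5 CPM on day 2 (2.32). Bax, which permeabilises mitochondria in cell death, had 17.7 CPM on day 3 and 5.56 CPM on day 2 (1.67). Ccng1, cyclin G1, had 132 CPM on day 3 and 389 CPM on day 2 (-1.56). Over the list, 10 of 17 measured members were higher, 5 by 2-fold or more, 1 was lower by 2-fold or more, and the median was 0.05.

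Most genes of the cytoskeleton, the matrix and the ribosome were higher. Of 28 measured cytoskeletal genes 22 were higher, 9 by 2-fold or more, with a median of 0.62. The tubulin Tuba1c was found in 99.1% of day 3 wells and 75.6% of day 2 wells (log2 ratio 2.25). Actb, cytoplasmic actin, had 947 CPM on day 3 and 301 CPM on day 2 (1.65), and the tubulin Tuba8 9.64 CPM on day 3 and 35.5 CPM on day 2 (-1.88). Of 25 measured matrix genes 23 were higher, 7 by 2-fold or more, with a median of 0.82. Col12a1, a fibril-associated collagen, was found in 17.8% of day 3 wells and 3.18% of day 2 wells (4.11). Beside them, 3 of 6 measured fibroblast markers that had not been used to choose the wells were higher, and none of these 7 markers was at 0. Their per-well sum had a median of 138 CPM on day 3 (lowest 0, highest 4256) and 153 CPM on day 2 (lowest 0, highest 5533). Their part in the matrix genes was not tested. Of 56 measured ribosomal and elongation factor genes 53 were higher, none of them by 2-fold, with a median of 0.51. Eef1a2, the elongation factor isoform of adult muscle, had 34 CPM on day 3 and 117 CPM on day 2 (-1.78).

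Sqle, of sterol synthesis, was higher while several genes of triglyceride synthesis were lower. Of 23 measured lipid synthesis genes 5 were higher and 6 lower by 2-fold or more, around a median of -0.01. Sqle, squalene epoxidase, was found in 16.2% of day 3 wells and 4.04% of day 2 wells (log2 ratio 2.54), with 55.9% of its day 2 counts in 1 well. Acacb, the acetyl-CoA carboxylase at the mitochondrion, had 8.72 CPM on day 3 and 48.1 CPM on day 2 (-2.46). Lpin1, a phosphatidate phosphatase, had 32.7 CPM on day 3 and 141 CPM on day 2 (-2.11, -0.93 within 15% to 25% mitochondrial counts). Dgat2, the last step of triglyceride synthesis, had 88.6 CPM on day 3 and 296 CPM on day 2 (-1.74). Gpam, its first step, had 33.1 CPM on day 3 and 108 CPM on day 2 (-1.71, but -0.12 within 15% to 25% mitochondrial counts).

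Most ion channel genes were lower on day 3. These genes set the resting potential and the shape of the cardiac action potential. Of 18 measured members 16 were lower and 14 lower by 2-fold or more, none was higher by 2-fold, and the median was -1.81. The median was -1.29 within wells of 15% to 25% mitochondrial counts, -1.21 within wells of 2000 to 4000 CPM of Ino80 and -0.25 within wells of 25% to 35% mitochondrial counts, where 53 day 3 and 168 day 2 wells remained. Other lists lay lower in some sets of wells. Within 25% to 35% mitochondrial counts the lipid synthesis genes had a median of -0.92 and the fatty acid oxidation genes -0.44, and within 2000 to 4000 CPM of Ino80 the 3 measured transgene-related features, Ino80 among them, had -1.34. Kcnk3 (ENSMUSG00000049265.7, chr5:30588170-30625271, plus strand), the background potassium channel TASK-1, had 18.2 CPM (17.5 to 19) on day 3 and 160 CPM (158 to 161) on day 2. Its per-well median was 4.67 CPM on day 3 (0 and 17.1 as quartiles) and 99.1 CPM on day 2 (27.9 and 232). The log2 ratio was -3.13 (-3.19 to -3.07), and 82% of day 3 wells lay below the first quartile of day 2. It stood at 137 CPM in day 1 wells with high Ino80 and at 139 CPM in day 3 wells under 100 CPM of Ino80.

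Other channels rested on fewer counts. Kcnh2, of the rapid delayed rectifier, had 1.08 CPM on day 3 and 9.47 CPM on day 2 (log2 ratio -3.13, -3.39 to -2.88). Scn4b, a sodium channel beta subunit, had 2.57 CPM on day 3 and 13.8 CPM on day 2 (-2.42). Kcnip2, a partner of the transient outward channel, had 5.20 CPM on day 3 and 20.9 CPM on day 2 (-2.01), although it had a count in 31.2% of day 3 wells and 20.4% of day 2 wells. Kcnj11, the pore of the ATP-sensitive channel, had 12.3 CPM on day 3 and 43.3 CPM on day 2 (-1.82).

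Calcium cycling genes were mostly lower on day 3. Of 20 measured members 14 were lower, 8 by 2-fold or more, with a median of -0.72 that was 0.28 within wells of 25% to 35% mitochondrial counts. Atp2a2, the pump SERCA2 that refills the sarcoplasmic reticulum, had a per-well median of 1495 CPM on day 3 (1102 and 2415 as quartiles) and 4609 CPM on day 2 (3189 and 6285). 85% of day 3 wells lay below the first quartile of day 2, and the log2 ratio was -1.40, or -0.45 within 25% to 35% mitochondrial counts. Its inhibitor Pln, phospholamban, had 31.1 CPM on day 3 and 97.8 CPM on day 2 (-1.65). Casq2, the calcium store protein, had 367 CPM on day 3 and 1054 CPM on day 2 (-1.52, -0.09 within 25% to 35%). Ryr2, the release channel, was at -1.10 over all members and 0.41 within 25% to 35% mitochondrial counts. Jph2, which tethers the reticulum to the surface membrane, was at -1.61 and, within 25% to 35%, 0.55.

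Of 33 measured sarcomere genes 22 were lower, 11 by 2-fold or more, and 3 were higher by 2-fold or more, with a median of -0.45. Myh6 (ENSMUSG00000040752.16, chr14:54941921-54966927, minus strand), the main myosin heavy chain of adult mouse heart, had a per-well median of 4390 CPM on day 3 (3533 and 5318 as quartiles) and 12091 CPM on day 2 (9655 and 14518). 97.5% of day 3 wells lay below the first quartile of day 2, and the log2 ratio was -1.42, or -0.75 within 25% to 35% mitochondrial counts. Ttn, titin, had 5665 CPM on day 3 and 12825 CPM on day 2 (-1.18), but a ratio of 0.29 within 25% to 35%. Actc1, cardiac actin, was at -1.01, Ldb3 of the Z-disc at -1.54, Obsl1, a linker protein, at -2.10 and Tnnt2, cardiac troponin T, at -0.09. The 3 higher members were Ankrd1, Cryab and Csrp3, the muscle LIM protein of the Z-disc, which had 5777 CPM on day 3 and 2465 CPM on day 2 (1.23). All 14 measured ventricular markers were lower, 6 by 2-fold or more, with a median of -0.55. Scaled to all mouse counts 11 of them were lower, with a median of -0.17 against 0.19 over all genes in that scaling. Of 19 measured genes of the cell junctions 11 were higher, 1 by 2-fold or more, and 2 were lower by 2-fold or more, with a median of 0.10. Cdh2, N-cadherin, had 71.7 CPM on day 3 and 33.2 CPM on day 2 (1.11), and Dsg2, a desmosomal cadherin, 57.9 CPM on day 3 and 158 CPM on day 2 (-1.45). Tln2, a talin, was at -1.16.

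Most fatty acid oxidation genes were lower by small amounts. Of 28 measured members 27 were lower, 5 by 2-fold or more, with a median of -0.42. Over all genes at that level 58.8% were lower and 15.6% lower by 2-fold or more, the latter close to the part of this list. Scaled to all mouse counts 17 were lower and the median was -0.05, against a median of 0.19 over all genes in that scaling. Acsl1, which activates long-chain fatty acids, had a per-well median of 18.8 CPM on day 3 (4.04 and 81 as quartiles) and 221 CPM on day 2 (60.3 and 455), a log2 ratio of -2.15 (-2.18 to -2.11). Ppara, the nuclear receptor that drives such genes, had 2.26 CPM on day 3 and 16.4 CPM on day 2 (-2.86), but a ratio of 0.06 within wells of 25% to 35% mitochondrial counts. Fabp3, the fatty acid binding protein of muscle, was at -0.56 and Cd36, the fatty acid transporter, at -0.05. PPAR targets were split. Plin2, a lipid droplet coat protein, had 385 CPM on day 3 and 122 CPM on day 2 (1.66). Pdk4, which blocks pyruvate oxidation, had 99.6 CPM on day 3 and 40 CPM on day 2 (1.32), and Vldlr, the VLDL receptor, 31.3 CPM on day 3 and 120 CPM on day 2 (-1.94).

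Glycolysis genes lay close to all genes in their median, while TCA cycle genes were mostly lower. Of 21 measured glycolysis genes 15 were lower, 2 by 2-fold or more, with a median of -0.17 against -0.18 over all genes. Slc2a4, the insulin-responsive glucose transporter, had 84.7 CPM on day 3 and 248 CPM on day 2 (log2 ratio -1.55). Of 19 measured TCA cycle genes 16 were lower, 2 by 2-fold or more, with Ogdh at -1.5, Idh3a at -1.16 and a median of -0.57. Nuclear genes of complex I, 36 measured, and of complexes III to V, 37 measured, had medians of 0.03 and -0.02, with none 2-fold apart. The mitochondrially encoded genes, given per 1000000 of all mouse counts, were lower in all 10 measured members, with a median of -0.87, which gives the difference in mitochondrial share once more.

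The remaining lower named genes had varied roles. Nceh1, a cholesterol ester hydrolase, had a per-well median of 5.25 CPM on day 3 (0 and 20.8 as quartiles) and 146 CPM on day 2 (26 and 425), a log2 ratio of -2.98 (-3.03 to -2.94). Pde4a, a phosphodiesterase of cyclic AMP, had 5.06 CPM on day 3 and 57.7 CPM on day 2 (-3.51). Ppp1r3c, a glycogen targeting subunit of protein phosphatase, had 38.7 CPM on day 3 and 186 CPM on day 2 (-2.26). Dhrs3, a retinal reductase, had 18.2 CPM on day 3 and 107 CPM on day 2 (-2.56). Asb2 and Asb10, adaptors of ubiquitin ligases, were at -2.09 and -2.78, Klhl23 at -2.69, Mtfp1, of mitochondrial fission, at -2.39 and Etl4 at -2.96. Sspn, sarcospan of the dystrophin complex, was at -2.05, but at -0.19 within 25% to 35% mitochondrial counts.

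Esr1 and Gt(ROSA)26Sor, which can carry transgene reads, were lower on day 3. MCM contains estrogen receptor sequence, so that its reads can fall on Esr1, which had 95.1 CPM on day 3 and 411 CPM on day 2 (log2 ratio -2.11, -2.14 to -2.08). Esr1 was at 459 CPM in day 1 wells with high Ino80 and at 0.802 CPM in day 3 wells under 100 CPM of Ino80. Gt(ROSA)26Sor, the transcript of a locus often used for transgenes, had 33.3 CPM on day 3 and 108 CPM on day 2, with 1.35 CPM in day 3 wells under 100 CPM of Ino80. Of 9 measured subunits of the INO80 complex other than Ino80, 5 were higher and 4 lower, none 2-fold apart, between Ruvbl1 at 0.88 and Yy1 at -0.96.

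**Figure D5:**
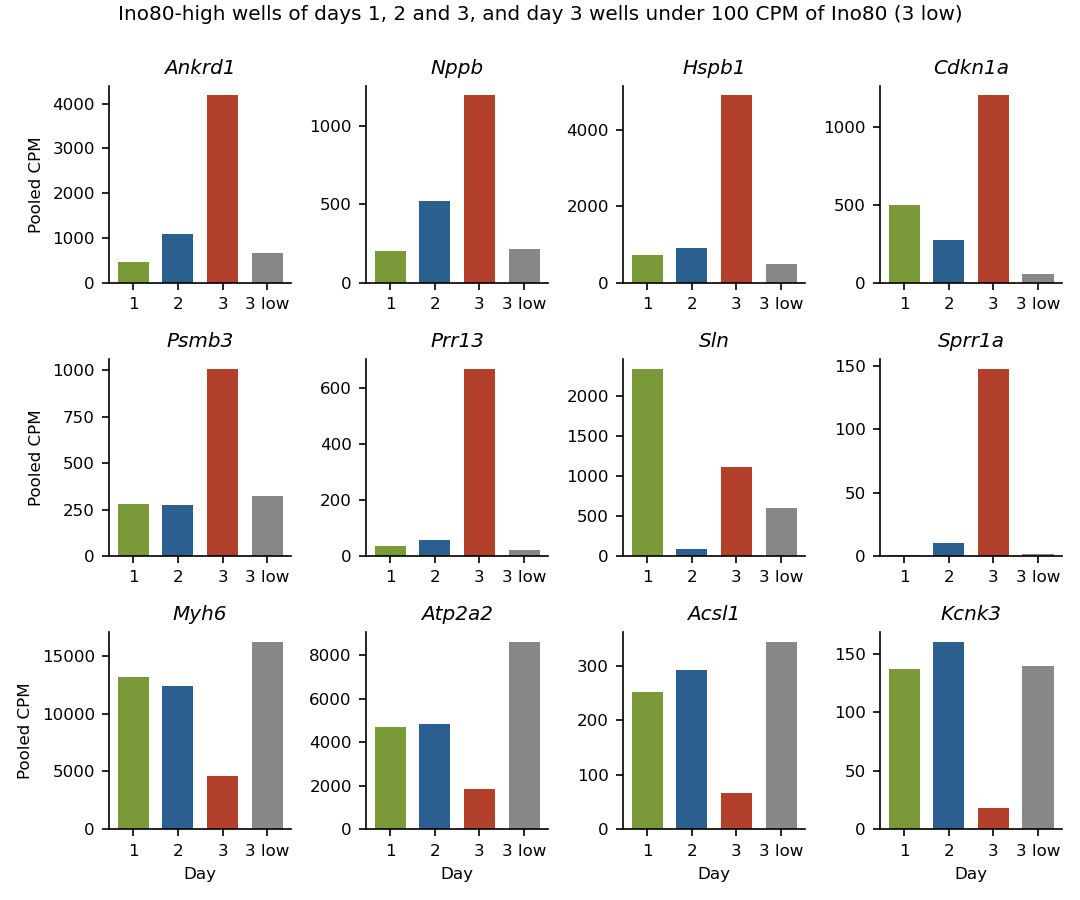
Pooled CPM of 12 genes in wells with at least 1000 CPM of Ino80 on day 1 (green, 838 wells), day 2 (blue, 817) and day 3 (red, 433), and in day 3 wells under 100 CPM of Ino80 (grey, 458). Ankrd1, Nppb, Hspb1, Cdkn1a, Psmb3, Prr13 and Sprr1a are tallest, and Myh6, Atp2a2, Acsl1 and Kcnk3 shortest, on day 3 with high Ino80, whereas Sln is tallest on day 1 with 2342 CPM.

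Beside day 1 and the day 3 wells under 100 CPM of Ino80, several genes stood apart in the day 3 wells with high Ino80. Hspb1 had 725 CPM in day 1, 904 CPM in day 2 and 4896 CPM in day 3 wells with high Ino80, and 479 CPM in day 3 wells under 100 CPM of Ino80. Psmb3 had 280 CPM in day 1, 275 CPM in day 2 and 1010 CPM in day 3 wells with high Ino80, and 325 CPM in day 3 wells under 100 CPM. Myh6 had 13152 CPM in day 1, 12390 CPM in day 2 and 4631 CPM in day 3 wells with high Ino80, and 16205 CPM in day 3 wells under 100 CPM. Nppb and Ankrd1 lay in between on day 2, with 203 CPM in day 1, 519 CPM in day 2 and 1197 CPM in day 3 wells for Nppb, and 456 CPM in day 1, 1076 CPM in day 2 and 4184 CPM in day 3 wells for Ankrd1. Some other described genes lay within 2-fold between the day 3 wells with high Ino80 and those under 100 CPM. Eef1a2 had 34 CPM with high Ino80 and 34.1 CPM under 100 CPM, and Cdh2 71.7 and 100 CPM. Csrp3 had 5777 CPM with high Ino80 and 3941 CPM under 100 CPM, and Myh7 119 and 85.7 CPM.

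Most named genes, 26 of 28, lay on the same side of 0 in wells that the macrophage marker sum had left out. In wells with that sum and Ino80 both at 1000 CPM or more, 28 on day 3 and 83 on day 2, Hspb1 had 4151 CPM on day 3 and 728 CPM on day 2. Sprr1a had 111 CPM on day 3 and 0.0900 CPM on day 2, and Ankrd1 3341 CPM on day 3 and 828 CPM on day 2. Myh6 had 3492 CPM on day 3 and 10332 CPM on day 2, and Kcnk3 35.9 CPM on day 3 and 117 CPM on day 2. Described genes that turned there were Cd68 (-0.26), Csf1r (-0.09), Asns (-1.69), Chac1 (-3.07), Scn4b (3.17), Kcnip2 (0.10), Tnnt2 (0.04), Pde4a (0.69) and Dhrs3 (0.18). Those that came under 2-fold were Mt1 (0.74), Mthfd2 (0.59), Herpud1 (-0.80), Hspa1b (0.38), Gadd45b (0.75), Tuba8 (-0.59), Dsg2 (-0.41) and Tln2 (-0.23). These wells share their libraries with the members but none of their cells.

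Further genes described above came under 2-fold in wells of the same band of mitochondrial share. Within wells of 15% to 25% the log2 ratio was 0.66 for Chac1, 0.79 for Srxn1, -0.84 for Psme4, -0.97 for Atp2a2, -0.35 for Ryr2, -0.96 for Jph2, -0.56 for Ttn, 0.86 for Csrp3, -0.06 for Dsg2, -0.46 for Tln2, -0.92 for Slc2a4, -0.86 for Ogdh and -0.62 for Gt(ROSA)26Sor. Within wells of 25% to 35% it was -0.99 for Myh7, -0.76 for Herpud1, 0.85 for Srxn1, 0.98 for Psmb3, 0.88 for Psmc4, 0.66 for Psmb6, 0.98 for Psmd7, -0.86 for Ccng1, -0.76 for Eef1a2, -0.95 for Dgat2, -0.83 for Gpam, -0.71 for Scn4b, -0.65 for Actc1, -0.89 for Obsl1, -0.47 for Dsg2, -0.63 for Tln2, -0.84 for Vldlr, -0.65 for Ogdh, -0.97 for Idh3a and -0.34 for Gt(ROSA)26Sor. None of these values lay on the other side of 0 from the ratio over all members. Cd36, near 0 over all members, turned to 0.31 within 15% to 25% and to 0.38 within 25% to 35%.

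Wells of the same band of Ino80 level gave smaller differences for some genes as well. Within wells of 1000 to 2000 CPM of Ino80, 91 on day 3 and 104 on day 2, the log2 ratio came under 2-fold at 0.70 for Nppb, 0.08 for Chac1, -0.58 for Herpud1, -0.47 for Psme4, -0.94 for Gpam, -0.52 for Scn4b, -0.74 for Kcnj11, -0.99 for Atp2a2, -0.32 for Ryr2, -0.50 for Jph2, -0.60 for Ttn, -0.95 for Ldb3, -0.66 for Obsl1, 0.90 for Csrp3, 0.92 for Cdh2, -0.17 for Dsg2, 0.83 for Plin2, -0.60 for Slc2a4, -0.93 for Ogdh, -0.91 for Dhrs3 and -0.66 for Etl4, and it turned at 0.42 for Kcnj3 and 0.38 for Cd36. Within wells of 2000 to 4000 CPM, 263 on day 3 and 213 on day 2, it came under 2-fold at 0.94 for Txn1, -0.91 for Psme4, -0.79 for Gpam, -0.85 for Casq2, -0.53 for Ryr2, -0.95 for Jph2, -0.70 for Ttn, 0.96 for Csrp3 and 0.83 for Pdk4, where not given above, and it turned at 0.15 for Cd36. Within wells of 4000 CPM or more, 79 on day 3 and 500 on day 2, it came under 2-fold at -0.97 for Psme4, 0.93 for Bax, -0.99 for Ryr2, -0.86 for Ttn, -0.80 for Actc1 and -0.64 for Tln2, and it turned at 0.07 for Tnnt2.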

How the data were processed

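RNA of single heart cells was measured in 3 libraries, of which days 2 and 3 were compared and day 1 gave context. The authors deposited read counts per gene and well as whole numbers. Cutadapt, STAR, featureCounts and the build mm10 are named in the submitters' processing notes; versions, strand setting and duplicate removal were not stated. Library totals were 484369736 counts on day 3, 452070922 on day 2 and 487461107 on day 1. Symbols and exons came from GENCODE M21, with 55141 of 55401 mouse identifiers found, 54349 of them in the same version. From the deposited counts, sums over wells and per-well CPM were computed with Python 3.11.15, numpy 2.4.6, pandas 2.3.3 and scipy 1.17.1, with exact Poisson intervals for levels and exact binomial intervals for ratios and shares, and drawn with matplotlib 3.10.9. The calculation was checked on simulated pooled Poisson counts at day 2 rates. These had no spread between wells and no reads copied from 1 molecule, so the check covers the arithmetic only. Genes 2-fold apart were counted among those with a mean of at least 10 CPM (5 CPM for lists). Named genes needed a mean of at least 20 CPM, detection in 25% or more of the wells of the group where they were higher, and no more than 25% of that group's counts from 1 well; clone, pseudogene-like, mitochondrial and ribosomal symbols were left out. Other genes were named as list members, and a few list members are not reported here. Members, lists and named genes were chosen with earlier results of these data known. No doublet caller was run. Alternatives changed the wells, the scaling, the depth and the minimum level. Reads of a gene and of exons overlapping it on the other strand cannot be told apart, which concerns 6 of the 28 named genes (Nppa, Mt2, Kcnk3, Etl4, Acsl1 and Sspn) and 20 of 94 further genes examined, among them Myh6, Myh7, Ttn, Atp2a2, Pln, Cdkn1a, Cryab, Hspa1a, Nmrk2, Uchl1 and Csf1r.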

Additional observations from a re-analysis of the deposited data

Results flagged for a closer look

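EGFP and 3xFlag are added sequences in the count tables that none of the comparisons uses, and EGFP had counts above the level of the wells with little Ino80. EGFP had 526 counts in the Ino80-high wells of day 3, in 42 wells (9.70%), and 519 counts in those of day 2, in 47 wells (5.75%), against 4 counts in the 458 day 3 wells under 100 CPM of Ino80. Scaled to depth, EGFP was at 4.22 CPM on day 3 and 2.50 CPM on day 2, unlike Esr1 and Gt(ROSA)26Sor, which were lower on day 3; the highest well held 145 of its counts on day 3 and 182 on day 2. 3xFlag had 15 counts in the Ino80-high wells of day 3 and 18 counts in those of day 2 (0.120 CPM on day 3 and 0.0866 CPM on day 2), against 8 counts in the day 3 wells under 100 CPM of Ino80.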

How the results depend on the processing

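No paired analysis was possible because each day is 1 library, and for the same reason no library could be left out. The count of genes 2-fold or more higher, 530, became 1282 within wells of 25% to 35% mitochondrial counts, 861 when scaled to all mouse counts, 1760 with a mean of at least 1 CPM and 184 with at least 50 CPM. The count of lower genes, 869, became 273 when scaled to all mouse counts, 310 with the median of per-well CPM, 2267 with a mean of at least 1 CPM and 208 with at least 50 CPM. In the other settings both counts stayed within 1.5 times. Leaving out wells whose barcode is shared, an alternative chosen after seeing the data, gave 535 higher and 942 lower. None of the 28 named genes changed sides in these settings, and Sspn alone came within 2-fold, in 1. In wells outside these settings, Pde4a (0.69) and Dhrs3 (0.18) turned where the macrophage sum was 1000 CPM or more, and Dhrs3 (-0.91) and Etl4 (-0.66) came within 2-fold at 1000 to 2000 CPM of Ino80. Within wells of 25% to 35% mitochondrial counts, 53 on day 3 and 168 on day 2, the log2 ratio turned for Chac1 (-0.64), Esrra (0.27), Jph2 (0.55), Kcnj3 (1.91), Ppara (0.06), Ppargc1b (1.38), Psme4 (0.04), Ryr2 (0.41) and Ttn (0.29). Ppargc1b also turned within 2000 to 4000 CPM of Ino80 (0.80). With no wells dropped for macrophage or fibroblast markers, Fcer1g and the median of the macrophage markers turned to -0.40. The cause was not tested. No interval covers differences between animals or libraries, and genes of few CPM rest on few wells.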

Other observations

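Clock genes were split. Usp2, an output gene of the clock, had 51.4 CPM on day 3 and 195 CPM on day 2, while Per1 and Per2 of its negative arm had 31.7 and 11.9 CPM on day 3 and 12.3 and 4.03 CPM on day 2; the hour of collection was not stated. Igkc, the kappa light chain of plasma cells, had 2.98 CPM on day 3 and 327 CPM on day 2, and 97.8% of the day 2 counts came from 1 well. It had a count in 1.39% of day 3 wells and 51.3% of day 2 wells. Spike-in RNAs gave 108 ERCC counts on day 3 and 199 on day 2, and 15 SIRV counts on day 3 and 168 on day 2.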
